A study of Mus musculus with 108 samples.

Results

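Divergent promoter pairs were examined in the chromatin state maps of mouse liver. A divergent pair was defined as a pair of protein-coding RefSeq genes on opposite strands of an autosome, head to head, with transcription start sites (TSS) 1 kb or less apart, taking for each gene the curated transcript with the longest genomic span. The definition used no chromatin state. It gave 805 pairs with 1600 genes, which is 7.99% of the 20021 autosomal protein-coding genes, and 10 genes were in more than 1 pair. The TSS of a pair lay 1 to 1000 bp apart, with a median of 156 bp and quartiles of 75 and 302 bp. For each pair, states were read in the interval between the TSS and 2 kb on either side, which is 21 to 26 bins of 200 bp and 17832 bins in all.

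In the study, H3K4me3, H3K27me3, H3K27ac and H3K4me1 were profiled by ChIP-seq in formalin-fixed, paraffin-embedded livers of inbred C57BL/6 females. Of 31 mice and 108 libraries in 4 groups, the maps of 3 groups were used. SD 3m comprised 8 mice on a standard diet aged 3 months (30 libraries), SD 12m 8 mice on the same diet aged 12 months (29 libraries), and CR 12m 9 mice aged 12 months (29 libraries) that had received 30% fewer calories since the age of 3 months. SD 6m was not analysed here. The libraries of a group were merged before the states were learned, so each group has 1 map, no difference between groups could be set against the spread between mice, and no test across mice was possible. Intervals given after a percentage are Wilson 95% intervals, which cover the counting of pairs or promoters only. The number of reads behind a map is unknown. Series of 3 values without group names follow the order SD 3m, SD 12m, CR 12m. The map assigns each bin to 1 of 8 states. State 1 (active TSS) carries H3K4me3 and H3K27ac, state 2 (flanking TSS) carries H3K4me1 in addition, state 3 (active enhancer 1) carries H3K27ac and H3K4me1, state 4 (active enhancer 2) mainly H3K27ac, state 5 (poised enhancer) mainly H3K4me1, state 6 (repressed Polycomb) carries H3K27me3, state 7 (Repeats/cLAD) carries weak H3K4me3, and state 8 (quiescent) carries none of the 4 marks. The TSS of all 6 hepatocyte markers (Alb, Apoa1, Apoa2, Fgb, Cps1, Tat) lay in states 1 to 5 in every group. For markers of other liver cells this was 3 of 6 in every group, although the leukocyte marker Ptprc (states 5, 5 and 8) was among them at 3 months and in SD 12m and the bile duct marker Krt19 (states 8, 8 and 4) in CR 12m, and for markers of other organs 0, 0 and 1 of 4. As whole liver was used, a state held by a fraction of the cells and a change in the mixture of cells cannot be told apart.

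A divergent promoter is a stretch of DNA from which RNA polymerase starts in opposite directions, so that a pair of genes shares the nucleosome-depleted region between them. Many such promoters lie in CpG islands and serve genes that every cell needs, for example genes of DNA repair, mitochondria and the ribosome. The clustered histone genes, which are transcribed mainly when cells replicate their DNA, are a second well known class, in which an H2A gene and an H2B gene face each other. H3K4me3 with H3K27ac marks the nucleosomes around active start sites, H3K4me1 lies further out, and H3K27me3 is deposited by Polycomb complexes on silent genes.

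The DNA between the TSS of some pairs is shown first, because the histone pairs and the other pairs differ in the motifs they hold as well as in their states. Sequences are from RefSeq, build GRCm38.p6, from the base after the TSS of the minus-strand gene to the base before the TSS of the plus-strand gene. Capitals mark exact matches on either strand to any of 6 motifs, none of which contains another, namely CCAAT (the NF-Y box), GGGCGG (Sp1), CCGGAAG (ETS factors), CGCATGCG (NRF1), AAGATGGCG (YY1) and TATAAA (the TATA box). The first set holds histone pairs whose TSS states were present in SD 3m and absent from the midpoint at 12 months. They hold 2 to 5 CCAAT boxes and 1 to 9 CpG dinucleotides.
H2ac8/H2bc8, chr13:23571221-23571399, plus strand: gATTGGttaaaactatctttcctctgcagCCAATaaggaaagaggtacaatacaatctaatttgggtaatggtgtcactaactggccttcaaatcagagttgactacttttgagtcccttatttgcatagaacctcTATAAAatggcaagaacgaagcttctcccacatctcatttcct
H2ac11/H2bc11, chr13:22042950-22043197, plus strand: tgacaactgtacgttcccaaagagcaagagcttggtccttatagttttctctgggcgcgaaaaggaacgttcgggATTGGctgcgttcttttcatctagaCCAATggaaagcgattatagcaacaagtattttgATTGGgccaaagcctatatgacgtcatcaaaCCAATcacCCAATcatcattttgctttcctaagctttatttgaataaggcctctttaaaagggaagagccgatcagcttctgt
H2ac15/H2bc15, chr13:21753913-21754075, plus strand: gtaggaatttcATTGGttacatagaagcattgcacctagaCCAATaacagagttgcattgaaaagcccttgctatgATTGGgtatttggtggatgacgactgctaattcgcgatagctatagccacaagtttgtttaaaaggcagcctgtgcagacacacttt

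The second set holds textbook pairs in TSS states, and 2 mitochondrial pairs with an ETS match, Sdhd/Timm8b and Helq/Mrps18c, that were chosen after their values were seen. These intervals hold 5 to 18 CpG dinucleotides.
Hadha/Hadhb, chr5:30154981-30155252, plus strand: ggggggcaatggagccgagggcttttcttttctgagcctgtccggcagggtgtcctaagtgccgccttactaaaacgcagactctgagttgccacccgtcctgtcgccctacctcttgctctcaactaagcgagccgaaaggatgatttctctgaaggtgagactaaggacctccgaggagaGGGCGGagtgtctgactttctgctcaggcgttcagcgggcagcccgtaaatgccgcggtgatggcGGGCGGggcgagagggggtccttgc
Psmb9/Tap1, chr17:34187331-34187555, plus strand: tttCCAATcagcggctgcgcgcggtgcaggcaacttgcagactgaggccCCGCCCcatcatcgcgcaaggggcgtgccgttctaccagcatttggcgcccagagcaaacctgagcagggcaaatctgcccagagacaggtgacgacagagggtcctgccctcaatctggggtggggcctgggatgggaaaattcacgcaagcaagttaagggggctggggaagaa
Brca1/Nbr1, chr11:101551956-101552106, plus strand: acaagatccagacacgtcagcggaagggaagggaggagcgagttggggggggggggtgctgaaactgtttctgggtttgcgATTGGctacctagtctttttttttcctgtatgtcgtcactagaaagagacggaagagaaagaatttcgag
Mrps12/Sars2, chr7:28741822-28741967, plus strand: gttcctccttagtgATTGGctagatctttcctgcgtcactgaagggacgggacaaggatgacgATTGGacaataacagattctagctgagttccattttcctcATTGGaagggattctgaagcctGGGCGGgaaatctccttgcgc
Sdhd/Timm8b, chr9:50603850-50603900, plus strand: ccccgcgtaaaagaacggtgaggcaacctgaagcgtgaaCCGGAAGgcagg
Helq/Mrps18c, chr5:100798601-100798758, plus strand: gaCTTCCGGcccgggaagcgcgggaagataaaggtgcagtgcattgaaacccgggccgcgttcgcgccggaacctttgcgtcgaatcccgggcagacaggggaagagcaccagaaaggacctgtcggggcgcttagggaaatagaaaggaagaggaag

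The third set holds pairs that were in the Polycomb state throughout the window in all 3 groups. Despite their shared state, Dpysl2/Pnma2 holds 4 Sp1 matches and Wfdc8/Wfdc6b none of the motifs.
Dpysl2/Pnma2, chr14:66911042-66911207, plus strand: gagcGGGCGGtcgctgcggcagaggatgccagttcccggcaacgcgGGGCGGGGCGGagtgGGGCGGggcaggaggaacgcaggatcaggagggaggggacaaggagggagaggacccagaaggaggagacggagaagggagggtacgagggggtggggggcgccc
Slc30a3/Dnajc5g, chr5:31108245-31108318, plus strand: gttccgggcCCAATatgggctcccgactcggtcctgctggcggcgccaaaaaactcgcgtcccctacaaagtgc
Wfdc8/Wfdc6b, chr2:164613627-164613699, plus strand: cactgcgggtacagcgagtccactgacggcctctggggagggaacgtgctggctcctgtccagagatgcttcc

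In all 3 groups, most midpoints between divergent TSS lay in state 1. SD 3m gave 74.5% (71.4 to 77.4), SD 12m 79.8% (76.8 to 82.4) and CR 12m 75.7% (72.6 to 78.5). State 2 held 17.3% (14.8 to 20.03), 8.07% (6.39 to 10.2) and 7.70% (6.05 to 9.75) of midpoints. The enhancer states 3, 4 and 5 together held 4.35%, 8.20% and 12.9%. State 6 held 8, 12 and 10 pairs, and state 8 held 19, 17 and 18 pairs. State 2 was thus less frequent and the enhancer states more frequent in both 12-month groups than in SD 3m, with intervals that did not overlap. The share of state 1 was highest in SD 12m, but the intervals of states 1, 6 and 8 overlapped among the groups.

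Single promoters, which are protein-coding TSS without the TSS of another curated gene within 5 kb (15542 promoters), were in state 1 or 2 far less often. Their shares were 39.3% (38.5 to 40.03), 33.4% (32.7 to 34.2) and 28.7% (28.0 to 29.5), against 91.8% (89.7 to 93.5), 87.8% (85.4 to 89.9) and 83.4% (80.6 to 85.8) of the divergent pairs. State 6 held 11.1% of single promoters in SD 3m and 0.994% of the pairs. Head-to-head pairs of a coding gene and a long non-coding RNA gene (459 pairs) were intermediate, with 64.3%, 59.5% and 56.2% in state 1 or 2 and 11.3% in state 6 in SD 3m. No test of these differences was made, and the intervals of the 3 sets did not overlap in any group for states 1 and 2.

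**Figure D1:**
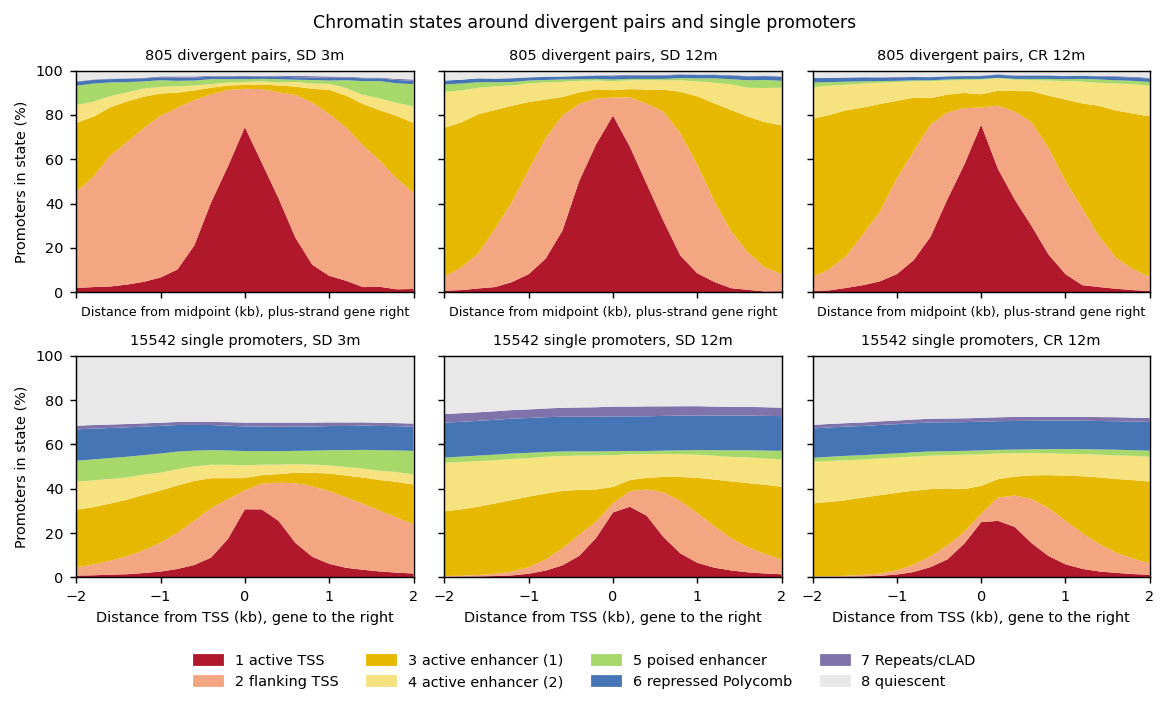
Percent of promoters in each of the 8 chromatin states (stacked colours) by distance in kb, from the midpoint of 805 divergent pairs (top) or from the TSS of 15542 single promoters oriented with the gene to the right (bottom), in SD 3m, SD 12m and CR 12m. State 1 peaks at 74.5%, 79.8% and 75.7% at the midpoint of the pairs, and state 2 is low there and higher on both sides (17.3% at the midpoint and 72.9% and 73.2% at 0.8 kb to the left and right in SD 3m), whereas at single promoters states 1 and 2 lie mainly on the side of the gene.

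The pairs were richer in CpG than single promoters. Over 1 kb, the median ratio of observed to expected CpG was 0.782 (quartiles 0.685 and 0.868) for pairs and 0.536 (quartiles 0.207 and 0.766) for single promoters, and the median GC content was 60.6% and 55%. Promoters were therefore also compared in classes of CpG ratio. In the class of 0.8 and over (365 pairs, 3154 single promoters), state 1 or 2 was found at 95.9% (93.3 to 97.5) of pairs and 73.5% (71.96 to 75.04) of single promoters in SD 3m. The values for SD 12m were 93.4% and 64.9%, and those for CR 12m 91.2% and 60.02%. In the class of 0.6 to 0.8 (353 pairs), 95.2%, 90.7% and 85.3% of pairs were in these states, against 65.9%, 57.5% and 47.8% of single promoters. Only 25 pairs had a ratio under 0.4. Of those, 24% (11.5 to 43.4), 12% (4.17 to 29.96) and 16% (6.40 to 34.7) were in state 1 or 2, against 7.22%, 4.97% and 3.80% of single promoters, and the intervals overlapped in SD 12m alone (4.46 to 5.52 for single promoters).

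**Figure D2:**
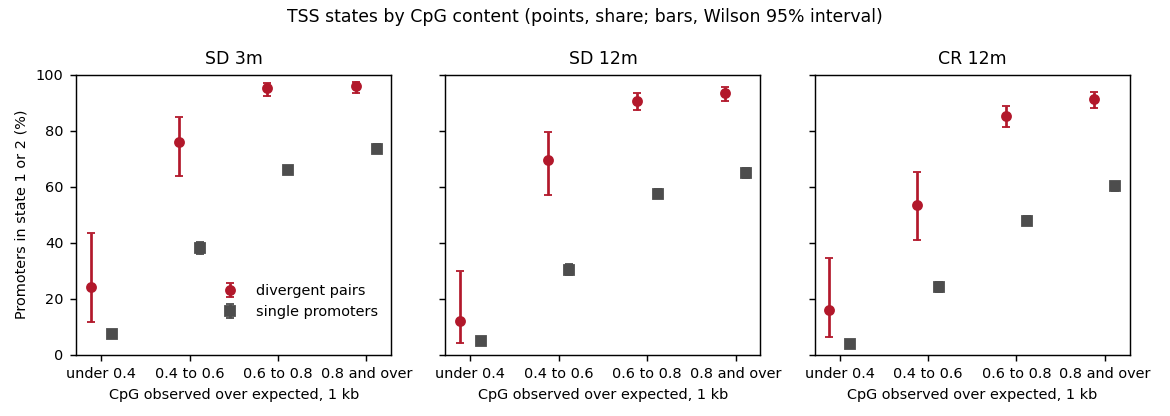
Percent of promoters in state 1 or 2 (y axis) by class of CpG observed over expected in the surrounding 1 kb (x axis), for divergent pairs (circles) and single promoters (squares), with Wilson 95% intervals that count promoters. In the class of 0.8 and over, pairs stand at 95.9%, 93.4% and 91.2% in SD 3m, SD 12m and CR 12m and single promoters at 73.5%, 64.9% and 60.02%.

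The 300 bases around the midpoint differed from the same length around single TSS in their motifs. The windows are not alike, as that of a pair is centred between 2 TSS and that of a single promoter on its TSS. The part of this placement in the shares was not tested. A match to CCGGAAG, the core bound by ETS factors such as GABPA, was present in 29.6% (26.5 to 32.8) of pairs and 10.01% (9.55 to 10.5) of single promoters. In the CpG class of 0.8 and over these shares were 32.1% and 16.8%. CCAAT was present in 44.8% of pairs against 35.4%, GGGCGG in 66.6% against 47.4%, CGCATGCG in 5.22% against 2.04%, and AAGATGGCG in 5.59% against 2.05%. TATAAA was rarer in pairs, with 4.97% (3.67 to 6.70) against 11.4%. In the CpG class of 0.8 and over, however, GGGCGG was less frequent in pairs (71.2%) than in single promoters (83.2%), and the intervals for TATAAA, CGCATGCG and AAGATGGCG overlapped between the sets.

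Among the pairs themselves, state 1 was more frequent where an ETS or an Sp1 match was present. Of 238 pairs with the ETS match, 87.0%, 88.7% and 83.6% were in state 1, against 69.3%, 76.0% and 72.3% of the 567 others. With GGGCGG (536 pairs) the shares were 81.2%, 84.7% and 80.04%, and without it 61.3%, 69.9% and 66.9%. State 1 was less frequent in the 40 pairs with TATAAA, with 55.0%, 65% and 60%, against 75.6%, 80.5% and 76.5% of the 765 others. Of these 40 pairs, 9 were histone pairs, and histone pairs as a group were in state 1 at 5, 3 and 1 of 13. The TATAAA pairs without histone genes were not compared apart. State 1 also rose with the CpG ratio of the pairs, with 16%, 40.3%, 70.8% and 87.95% from the lowest to the highest class in SD 3m. The shares with and without a motif were not split by CpG class. A match is a description of the letters in this window and not a measured binding site.

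Taken over all pairs, the TSS states lay about equally on the sides of the minus-strand and the plus-strand gene. Which gene is on which strand is arbitrary, so these totals do not show that single pairs were symmetric. At 1 kb on the side of the minus-strand gene, 79.6% of pairs were in state 1 or 2 in SD 3m, and on the side of the plus-strand gene 80.5%. SD 12m gave 55.3% and 57.5%, and CR 12m 51.4% and 50.2%. The unbroken run of states 1 and 2 through the midpoint extended further on the minus-strand side in 341 pairs and further on the plus-strand side in 342 pairs in SD 3m (308 and 321 in SD 12m, 316 and 279 in CR 12m). At single promoters, the run extended further into the gene at 5174 promoters and further upstream at 672 in SD 3m. Pairs with a long non-coding RNA gene resembled the latter, with 240 runs longer on the side of the coding gene and 44 on the other.

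Both TSS of a pair usually shared a state. The 2 TSS bins had the same state in 79.1% (76.2 to 81.8), 84.7% (82.1 to 87.04) and 82.1% (79.3 to 84.6) of pairs. In 262 pairs the 2 TSS fell into the same bin. Among the other 543, the states were equal in 69.1%, 77.4% and 73.5%. Where they differed, the most frequent combination was state 1 with state 2, in 139, 82 and 89 pairs. A TSS in states 1 to 5 facing a TSS in states 6 to 8 was rare, with 4, 1 and 3 pairs.

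The distance between the TSS went with the state at the midpoint. In SD 3m, state 1 was found at 81.7% (76.6 to 85.8) of the 267 pairs with TSS up to 100 bp apart and at 51.9% (42.4 to 61.3) of the 104 pairs with TSS more than 500 bp apart, where state 2 held 31.7%. The corresponding shares of state 1 were 84.3% and 62.5% for SD 12m, and 77.9% and 59.6% for CR 12m. The midpoint of a wide pair lies farther from either TSS. Over all pairs, state 1 in SD 3m was also less frequent 400 bp from the midpoint, with 40.6% to the left and 42.4% to the right. The part of this in the difference between distance classes was not tested. The closest pairs illustrate the usual pattern. Capza1/St7l, which encodes an actin capping protein subunit on the minus strand, has TSS 1 bp apart, was in state 1 at the midpoint in all groups and held 21, 18 and 16 bins of states 1 and 2. Tcta/Rhoa, with the small GTPase gene Rhoa and TSS also 1 bp apart, was in states 2, 1 and 1 and held 21, 17 and 15 such bins. Snx5/Mgme1, 2 bp apart, held 14, 13 and 13.

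The domain of TSS states was narrower at 12 months than at 3 months. States 1 and 2 made up 72.3%, 48.2% and 44.9% of the window bins, with a median of 17, 11 and 10 bins per window. The difference lay in state 2, with 54.9%, 28.4% and 26.99% of bins, and not in state 1, with 17.4%, 19.8% and 17.9%. State 3 was found in its place, with 14.5%, 36.1% and 40.2%. Among 9796 window bins with state 2 in SD 3m, the SD 12m map had 49.3% in state 2 and 39.98% in state 3, and the CR 12m map 45.2% and 44.1%. Among 3099 bins with state 1, 84.5% and 75.2% carried it again. Between SD 3m and SD 12m, 725 pairs had fewer bins of states 1 and 2, 24 had more and 56 had the same number, and the median difference was -5 bins. Between SD 3m and CR 12m, 736 had fewer and 12 more, with a median of -6 bins. Between SD 12m and CR 12m, 404 had fewer in CR 12m and 220 more, with a median of -1 bin. Windows in state 1 or 2 throughout numbered 165, 2 and 3. In the whole genome, state 2 covered 1.13%, 0.425% and 0.361% of bins, so the narrowing was not confined to the pairs. The merged libraries differed in number per mark between the groups (H3K4me3 7, 8 and 5, H3K27ac 8, 7 and 9, H3K4me1 8, 6 and 9), and this cannot be told apart from age and diet.

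The unbroken run of states 1 and 2 through the midpoint had a median length of 4000 bp (739 pairs), 2400 bp (707 pairs) and 2200 bp (671 pairs). At single promoters the medians were 3000, 1800 and 1600 bp. The run of state 1 alone had a median of 800, 1000 and 800 bp at pairs. In the CpG class of 0.8 and over, median runs of both TSS states were 4200, 2400 and 2400 bp at pairs and 3600, 2000 and 2000 bp at single promoters. The longest run in SD 3m, 17200 bp, was that of Srsf2/Mfsd11, with the splicing factor gene Srsf2, and it measured 5600 and 4600 bp at 12 months. This pair was named after its values were seen.

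**Figure D3:**
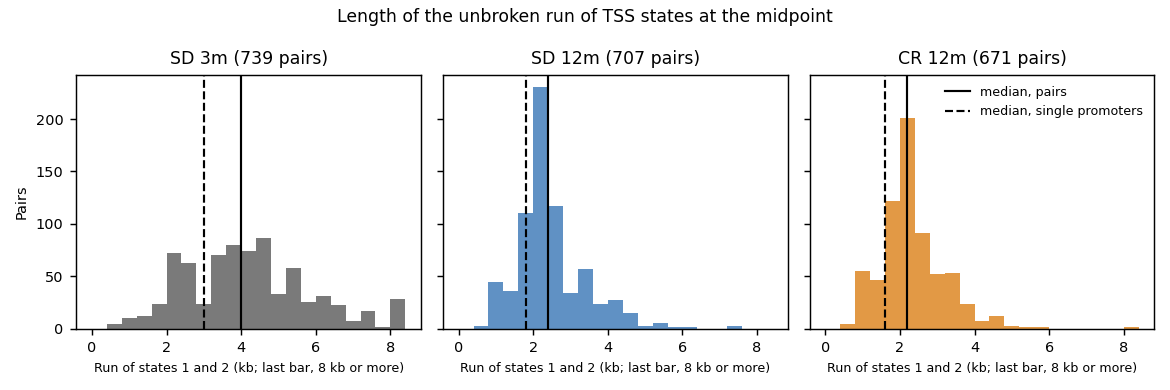
Number of pairs (y axis) by length in kb of the unbroken run of states 1 and 2 that holds the midpoint (x axis, bars of 0.4 kb, the last for 8 kb or more), in SD 3m, SD 12m and CR 12m, with the median of pairs (solid line) and of single promoters (dashed line). The median of pairs is 4000 bp in SD 3m and 2400 and 2200 bp in the 12-month groups.

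The pairs with the most TSS bins in all groups, which were chosen by that count, are described next. Their windows were full in SD 3m, so the unbroken runs are given as well. Dcaf6/Mpc2, with the gene of a mitochondrial pyruvate carrier subunit, held 25, 25 and 21 bins of states 1 and 2 out of 25, in runs of 9600, 7600 and 4600 bp. Hnrnpa2b1/Cbx3, an RNA-binding protein and the heterochromatin protein HP1 gamma, held 25, 22 and 22 of 25, in runs of 10000, 5200 and 5200 bp. Tshz1/Zadh2 held 23, 22 and 22 of 23, of which 13, 16 and 15 were state 1, in runs of 9000, 4400 and 4400 bp. Prune1/Mindy1 held 25, 22 and 22 of 25, in runs of 8200, 5000 and 4800 bp, and all 3 of its midpoints were in state 2. Tst/Mpst, which encode the sulfurtransferases rhodanese and mercaptopyruvate sulfurtransferase, held 25, 21 and 20 of 25, in runs of 7400, 5000 and 5000 bp.

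At the midpoint, 571 pairs (70.9%, 67.7 to 74.0) had the same state in all 3 groups, 517 of them state 1, and 666 (82.7%) were in state 1 or 2 in all groups. Between SD 3m and SD 12m the state differed at 155 pairs, 19.3% (16.7 to 22.1), whereas it differed at 32.7% of all 20021 protein-coding TSS and at 34.3% of single promoters. Between SD 3m and CR 12m it differed at 199 pairs, 24.7% (21.9 to 27.8), against 35.5% of all TSS. Both comparisons share SD 3m. Between SD 12m and CR 12m it differed at 130 pairs, 16.1% (13.8 to 18.9), against 27.1% of all TSS. From the lowest to the highest CpG class (under 0.4, 0.4 to 0.6, 0.6 to 0.8, 0.8 and over), 44%, 38.7%, 23.2% and 10.4% of pairs differed between SD 3m and SD 12m, and 40%, 45.2%, 29.2% and 15.9% between SD 3m and CR 12m. For single promoters the same classes gave 35.1%, 43.4%, 34.8% and 25.9%, and 32.1%, 47.5%, 41.6% and 31.4%. The class of 0.8 and over was thus the lowest in each of these series. For pairs between SD 3m and SD 12m the share fell with each class, whereas each of the other series was highest at 0.4 to 0.6. When the 8 states were merged into 5 classes, with states 1 and 2 as 1 class, 7.20% of pairs differed between SD 3m and SD 12m, 10.4% between SD 3m and CR 12m and 7.58% between the 12-month groups.

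At the midpoint, the most frequent change with age was from the flanking to the active TSS state, whereas over all window bins state 2 went mainly to state 3, as given above. Among 139 midpoints with state 2 in SD 3m, 76 (54.7%) had state 1 in SD 12m, 78 (56.1%) had it in CR 12m, and 59 had it in both. At single promoters in state 2, 35.4% and 26.5% were in state 1, and 22.4% and 36.7% in state 3. Among 600 midpoints with state 1 in SD 3m, 562 kept it at 12 months under SD and 531 under CR. They left state 1 in 6.33% and 11.5% of pairs, against 18.8% and 30.1% of the single promoters that had been in it.

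Losses of TSS states exceeded gains in number. In SD 3m, 739 of 805 pairs and 9298 of 20021 TSS were in state 1 or 2, and only the others could enter. In SD 12m, 707 pairs and 8115 TSS were in these states. The shares below are of all pairs or all TSS. They therefore do not compare the members that could leave or enter. Between SD 3m and SD 12m, 36 pairs (4.47%) left states 1 and 2 at the midpoint and 4 (0.497%) entered them, where all TSS gave 7.29% and 1.38%. Between SD 3m and CR 12m, 68 pairs (8.45%) left them and 0 entered. The upper Wilson limit for entry was 0.475% of all 805 pairs. The values for all TSS were 11.9% and 1.16%. Between SD 12m and CR 12m, 41 pairs (5.09%) were in state 1 or 2 in SD 12m but not in CR 12m and 5 (0.621%) the other way round, against 6.93% and 2.14% of all TSS. Most of these, 39 pairs, were in an enhancer state in CR 12m, and 4 pairs showed the reverse. The 39 had a median CpG ratio of 0.702 and a median distance of 240 bp between TSS, against 0.799 and 146.5 bp in the 666 pairs that were in state 1 or 2 throughout. They included Emc3/Fancd2, with a gene of the Fanconi anaemia pathway of DNA repair, Gen1/Smc6, Ppwd1/Cenpk and Abhd14a/Abhd14b, named here after their values were seen. The pairs that entered TSS states in SD 12m included Pecr/Tmem169, Tango2/Arvcf and Tmem217/Tbc1d22b, likewise named after their values were seen, and each of these already held 6 to 11 bins of states 1 or 2 elsewhere in its window in SD 3m. None of the 39 pairs without any such bin in SD 3m had its midpoint in state 1 or 2 at 12 months. This rule was not applied to other promoters.

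In 16 pairs the midpoint was in state 1 or 2 in SD 3m and the window held no bin of these states in SD 12m or in CR 12m. Of these midpoints, 13 and 14 were then in an enhancer state. This rule was not applied to single promoters or to all TSS, so the number has no background share to be read against. The largest losses were those of the 3 histone pairs whose sequences are shown above. H2ac11/H2bc11 held 20, 0 and 1 bins of states 1 and 2. H2ac8/H2bc8 held 17, 0 and 0, and H2ac15/H2bc15 held 16, 0 and 0. Their midpoints were in state 1 in SD 3m, in states 5, 4 and 5 in the SD 12m map, and all in state 4 in the CR 12m map. Apart from 1 bin of state 1 in H2ac11/H2bc11, these windows held enhancer states and no state with H3K4me3 at 12 months.

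Dok1/Loxl3, with the gene of a lysyl oxidase that cross-links collagen, held 14, 9 and 0 bins of TSS states. P3h4/Fkbp10, which encode collagen-modifying proteins of the endoplasmic reticulum, held 13, 1 and 0. Hspa1a/Hspa1l, with the heat-inducible Hsp70 gene Hspa1a, held 10, 2 and 0. Lrrc75a/Mmgt2 held 14, 2 and 0, and 1700037C18Rik/Cluap1, with a gene of transport in cilia, held 8, 6 and 0. In CR 12m, all 5 of these windows were covered by states 3 and 4. The 16 pairs had a median CpG ratio of 0.648, and 1 of them had an ETS match.

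**Figure D4:**
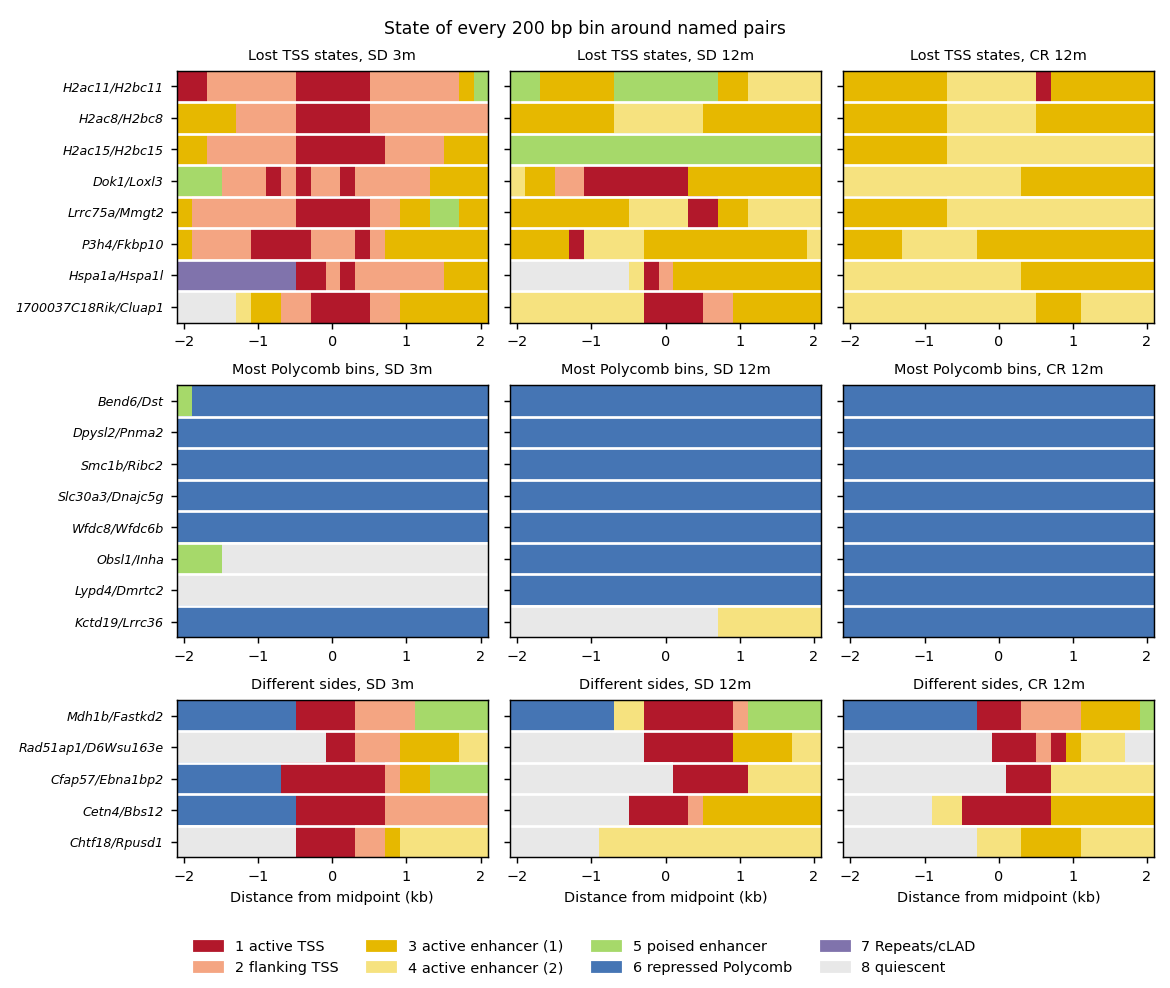
State (colour) of each 200 bp bin within 2 kb of the midpoint (x axis, kb, minus-strand gene to the left) of the pairs named for lost TSS states (top), for the most bins of state 6 (middle) and for different states on the 2 sides (bottom), in SD 3m, SD 12m and CR 12m. H2ac8/H2bc8 shows 17 bins of TSS states in SD 3m and 0 in both 12-month groups, whereas Dpysl2/Pnma2 is in state 6 throughout in all 3.

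Histone genes formed 13 pairs. In the 300 bases around the midpoint, CCAAT was present in 13 of 13 histone pairs, TATAAA in 9 of 13 and the ETS match in 0 of 13. These bases can reach beyond the TSS. The midpoint was in state 1 or 2 at 6, 3 and 1 of 13 pairs, and in an enhancer state at 4, 7 and 10. At least 1 bin of TSS states was in the window of 9, 3 and 4 pairs. The CpG ratio covers 1 kb and so includes DNA on the gene side of the TSS. Between the TSS, H2ac8/H2bc8, H2ac11/H2bc11 and H2ac15/H2bc15 held 1, 9 and 3 CpG dinucleotides in 179, 248 and 163 bp. By the ratio over 1 kb, 11 of the 13 histone pairs were in the class of 0.8 and over. Of these 11, 5, 2 and 1 were in state 1 or 2, against 345, 339 and 332 of the 354 other pairs of that class. The histone pairs named next were chosen after their values were seen. The pair in state 1 in all groups was H2ac20/H2bc21, the sole histone pair outside chromosome 13, which held 22, 14 and 15 bins of TSS states. H2ac6/H2bc4 held 16, 15 and 8, and H2bc9/H3c7, a pair of an H2B and an H3 gene, held 12, 7 and 1. H2bc23/H2ac23 and H2ac24/H4bc24 were in state 8 throughout, whatever the group. Taken gene by gene, 12, 6 and 2 of 26 paired histone TSS were in state 1 or 2, and 33, 17 and 13 of the 47 histone TSS in no pair, so the lower numbers at 12 months were seen in both. As a share, the paired histone TSS gave 46.2%, 23.1% and 7.69%, against 46.4%, 40.5% and 35.8% of all protein-coding TSS, so the value for SD 3m was close to that of all TSS. Histone genes exist in near-identical copies, and reads of low mapping quality were removed by the authors. The part of this filter in these states was not tested.

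Mitochondrial genes, here chosen by symbol, covered the respiratory chain and ATP synthase with assembly factors, the import machinery and the mitochondrial ribosome. They gave 57 pairs with 59 of 209 such genes, and Cox4i1 was in 2 of these pairs. The midpoints of these pairs were in state 1 or 2 at 56, 56 and 55 of 57 pairs. Counted by gene, 100%, 100% and 98.3% of the 59 paired TSS were in these states, against 89.3%, 82.7% and 76.7% of the 150 in no pair. Outside this list of symbols, Hadha/Hadhb, the subunits of the trifunctional protein of fatty acid oxidation, held 23, 19 and 19 bins of TSS states out of 23. Emc8/Cox4i1, with a subunit of cytochrome c oxidase, held 18, 13 and 17 of 22. Mrps12/Sars2, a protein of the mitochondrial ribosome and the mitochondrial seryl-tRNA synthetase, held 8, 6 and 6 of 21. Sdhd/Timm8b held 21, 16 and 17 of 21, and Helq/Mrps18c 10, 8 and 9 of 22. For tRNA synthetases, 10 of 10 pairs were in TSS states in each group, among them Hars/Hars2, the cytosolic and the mitochondrial histidyl-tRNA synthetase, with TSS 4 bp apart and 16, 10 and 13 TSS bins. For the proteasome and antigen processing it was 9 of 9 in each group. Many TSS in no pair were in TSS states as well. For tRNA synthetases these were 95.5%, 86.4% and 86.4% of 22, and for the proteasome and antigen processing 90.5%, 83.3% and 73.8% of 42. In both gene groups the intervals overlapped those of the paired TSS (100% in each map). Psmb9/Tap1, an immunoproteasome subunit and the peptide transporter of antigen presentation, held 22, 17 and 12 TSS bins of 22.

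DNA repair and replication gave 27 pairs, of which 26, 25 and 24 were in state 1 or 2 at the midpoint. Brca1/Nbr1, a gene of homologous recombination and an autophagy receptor, held 19, 13 and 11 TSS bins of 22. Atm/Npat, the DNA damage kinase and a coactivator of histone genes, held 18, 12 and 12 of 23. Mcm4/Prkdc, a subunit of the replicative helicase and the catalytic subunit of DNA-dependent protein kinase, held 13, 12 and 8 of 24, and in it state 1 made up 11, 11 and 8 bins, more than state 2. These 3 pairs were in state 1 at the midpoint in all groups. By gene, 26, 25 and 22 of 27 paired TSS of this group were in state 1 or 2, and 59, 47 and 35 of 66 TSS in no pair.

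The remaining groups were counted likewise. Zinc finger genes were in TSS states at 22, 21 and 21 of 22 pairs, and solute and ABC carriers at 20, 18 and 19 of 21. Counted by gene, 100%, 84.6% and 96.2% of 26 paired zinc finger TSS were in TSS states, and 71.6%, 62.7% and 56.4% of the 429 in no pair. By gene, 90.9%, 86.4% and 86.4% of 22 paired carrier TSS were in TSS states, and 40.05%, 31.3% and 28.1% of the 402 in no pair. Developmental factors were rare among pairs, with 3 of 183 genes. Collagens gave a single pair, Col4a4/Col4a3, chains of basement membrane collagen, whose midpoint was in states 5, 4 and 8 and whose window held no TSS state. Hspd1/Hspe1, Col4a1/Col4a2, Surf1/Surf2, Ppat/Paics, Gabpa/Atp5j and Abcg5/Abcg8 did not enter the set, because the 5′ ends of the transcripts used here overlap.

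**Figure D5:**
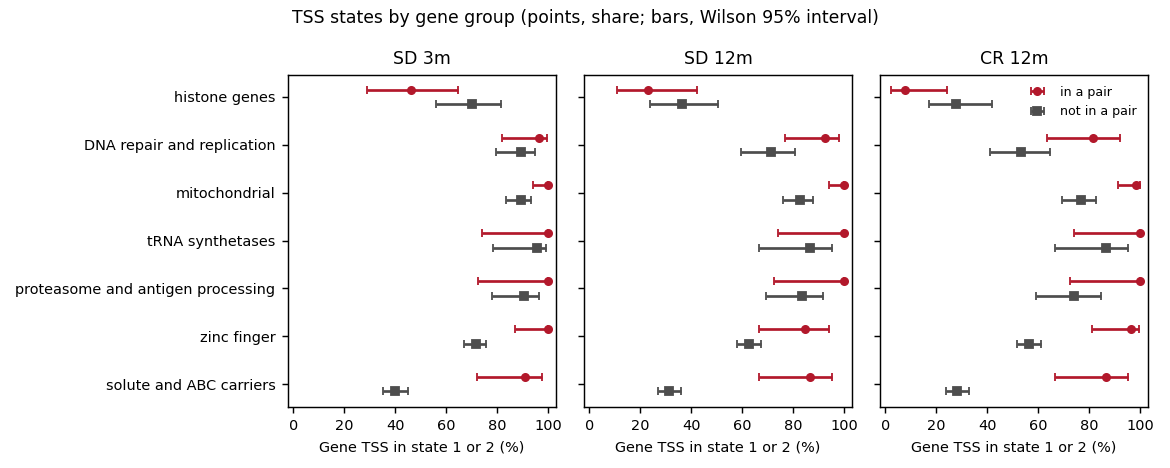
Percent of gene TSS in state 1 or 2 (x axis) for groups of genes (y axis), for genes in a divergent pair (circles) and in no pair (squares), with Wilson 95% intervals that count genes, in SD 3m, SD 12m and CR 12m. Paired histone genes stand at 46.2%, 23.1% and 7.69%, while paired mitochondrial genes stand at 100%, 100% and 98.3%.

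The Polycomb state was rare. A window with at least 1 bin of state 6 was found at 33 pairs, namely 20, 19 and 18 in the 3 maps. State 6 throughout the window was found at 6, 9 and 10 pairs. Dpysl2/Pnma2 and Smc1b/Ribc2 held 22 bins of state 6 out of 22 in every group, and Slc30a3/Dnajc5g and Wfdc8/Wfdc6b held 21 of 21. Bend6/Dst held 22, 24 and 24 of 24. Among these genes, Dpysl2 acts in axon growth, Slc30a3 loads zinc into synaptic vesicles and Smc1b is the cohesin subunit of meiosis. Obsl1/Inha, with the inhibin alpha gene, was in state 8 at the midpoint in SD 3m and held 0, 24 and 24 bins of state 6 out of 24. Lypd4/Dmrtc2 held 0, 23 and 23 of 23. Kctd19/Lrrc36 held 22, 0 and 22 of 22, so it differed in SD 12m alone.

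In 10 pairs the window was in states 7 and 8 throughout in SD 3m, and none of them was in a TSS state at 12 months. Sncg/Mmrn2, with the gamma-synuclein gene and an extracellular matrix gene of endothelium, was in state 8 in all 25 bins in SD 3m and in state 4 in all 25 bins in both 12-month groups. Galntl6/BC030500 held 21 bins of state 6 in SD 12m and 0 in the other groups. Draxin/Mad2l2 held 22 in CR 12m alone. Plcz1/Capza3, genes of sperm, was in state 7 at the midpoint in SD 3m and in state 8 at 12 months.

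A boundary between active and silent chromatin ran through a few pairs. In 11, 5 and 3 windows, state 6 and a TSS state were both present, whether or not their bins adjoined. Mdh1b/Fastkd2, with Fastkd2, a gene of mitochondrial RNA processing, held 8, 7 and 7 TSS bins and 9, 8 and 10 bins of state 6, with the Polycomb bins on the side of Mdh1b in all groups. Cetn4/Bbs12, a centrin and a gene of the Bardet-Biedl syndrome, held 8 bins of state 6 on the side of Cetn4 in SD 3m and 0 at 12 months, when state 8 took that side. Cfap57/Ebna1bp2, with TSS 14 bp apart, held 7 such bins on the side of the cilia gene Cfap57 in SD 3m and 0 at 12 months, and 8, 5 and 3 TSS bins. In Rad51ap1/D6Wsu163e, with Rad51ap1, a gene of homologous recombination, the window held 12, 10 and 14 bins of state 8 and 5, 6 and 5 TSS bins. The TSS of Rad51ap1 was in states 8, 1 and 8, and that of D6Wsu163e in state 1 in all groups. Chtf18/Rpusd1 held 6, 0 and 0 TSS bins.

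In 62 pairs (7.70%) the midpoint was in state 1 or 2 in none of the groups. Their median CpG ratio was 0.599, and 6 of them (9.68%) held the ETS match. The pairs named here were chosen after their values were seen. Rhno1/Foxm1, with the transcription factor gene Foxm1 of dividing cells, was in state 4 at the midpoint throughout, although its window held 8, 3 and 2 TSS bins. Rad51c/Tex14, with a gene of homologous recombination, was also in state 4 in all groups and held 5, 2 and 0 TSS bins. Hmmr/Nudcd2, with the hyaluronan receptor gene Hmmr, was in states 5, 4 and 8 and held 11, 6 and 10 TSS bins beside the midpoint.

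Of pairs with imprinted genes, of which the copy from 1 parent is silent, 2 were looked up, again with their values known. Sgce/Peg10 was in state 8 at the midpoint in all groups and held 0, 3 and 4 bins of state 6 out of 21, with no TSS bin. Peg3/Usp29 was in state 7 at the midpoint in all groups, and 13, 13 and 10 of its 21 bins were in state 7, beside 2, 1 and 1 bins of state 1. Interferon-induced Ifit1 forms a pair with Ifit1bl2, which held 6, 0 and 0 TSS bins of 22, and its midpoint was in states 2, 3 and 3.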

How the data were processed

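Per the labels and the study's methods, the authors aligned reads to mm10 with BWA 0.6.2-r126, removed poorly mapped and duplicate reads with SAMtools 0.1.18, merged the libraries of each group and trained ChromHMM with 8 states. The deposited files hold, for every 200 bp bin of 20 chromosomes (13168874 bins), a state label and no signal. The depth is unknown. For each gene the curated transcript with the longest genomic span was used, and TSS and sequences were taken from RefSeq for GRCm38.p6, whose chromosome lengths match the bins. Pairs, states, runs, CpG ratios (1 kb) and exact motif matches (300 bases) were obtained with Python 3.11.15 (numpy 2.4.6, pandas 2.3.3, scipy 1.17.1, matplotlib 3.10.9). On simulated maps, planted states, runs and window counts were recovered at 760 of 760 pairs. Wilson 95% intervals were used, and there was no test.

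Members, motifs and gene lists were chosen with earlier results of these data known. Pairs named were textbook pairs (some are not reported here), up to 8 each with the most bins of state 6, with lost and with gained TSS states (0 found), and up to 5 each with the widest TSS states, with quiescent windows, with unequal sides and with the shortest distance. Gene groups were formed by symbol. Alternatives concerned the choice of TSS, the distance limit, overlapping 5′ ends, histone genes, chromosomes, window width, midpoint rule and merged states.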

Additional observations from a re-analysis of the deposited data

How the results depend on the processing

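Of 95 recomputed values, 80 stayed within the Wilson 95% interval of the reported value (or, for the number of pairs, within 1.5 times of it) and 15 did not. With the TSS 500 bp or less apart, state 1 held 77.9% of midpoints in SD 3m, and both TSS bins had the same state in 82.5% (SD 3m), 87.5% (SD 12m) and 84.9% (CR 12m) of pairs. With the most frequent state between the TSS in place of the midpoint, state 1 held 78.1% in SD 3m, state 2 held 14.3% (SD 3m) and 6.21% (SD 12m), and the state differed between SD 3m and CR 12m at 21.9% of pairs. With pairs whose 5′ ends overlap added, state 2 held 10.3% in CR 12m. With 1 kb on each side, states 1 and 2 made up 85.9% (SD 3m), 74.0% (SD 12m) and 69.2% (CR 12m) of window bins. With merged states, the midpoint differed at 7.20% of pairs between SD 3m and SD 12m, 10.4% between SD 3m and CR 12m and 7.58% between SD 12m and CR 12m, because changes between states 1 and 2 and among states 3, 4 and 5 then no longer count. For the other settings the cause was not tested. No paired analysis was possible because the libraries of each group were merged into 1 map, and for the same reason no library could be left out. The unknown depth of the merged libraries limits what the absence of a state means.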
